A study of Mus musculus with 9 samples.

Results

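The 10 ETS family transcription factor genes examined were *Erg*, *Fli1*, *Ets1*, *Ets2*, *Etv6*, *Elk3*, *Elk1*, *Elf1*, *Elf2* and *Gabpa*. They were chosen by symbol, and each was found as 1 row among the 37104 loci of the deposited tables. All 10 passed the filter on low values, so they are part of the 10605 genes tested. Expression was measured by RNA-seq of primary mouse lung endothelial cells (MLEC) in 9 libraries, 3 for each of 3 genotypes. The unit is FPKM, a fragment count divided by transcript length and library size, so that levels can be set side by side between genes. ECtrl cells were Cdh5-Cre+ Jnk1+/+ Jnk2+/+ Jnk3-/-. EfCtrl cells carried the floxed alleles without the recombinase, that is, Cdh5-Cre- with Jnk1LoxP/LoxP and Jnk2LoxP/LoxP, also on Jnk3-/-. E3KO cells carried both, that is, Cdh5-Cre+ with Jnk1LoxP/LoxP and Jnk2LoxP/LoxP, again on Jnk3-/-. All 3 groups therefore lacked *Mapk10* (JNK3), and the difference between E3KO and the controls concerns *Mapk8* (JNK1) and *Mapk9* (JNK2). The mice were C57BL/6J adults of 10 to 12 weeks, Cre was driven by the promoter of the endothelial cadherin gene *Cdh5*, and each library came from a separate isolation, from pooled lungs of several mice, of cells selected on ICAM2 and kept in culture.

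ETS proteins share a DNA-binding domain that reads a GGAA core, and most cells express many of them at the same time. ERG and FLI1 are closely related activators that maintain endothelial identity. ETS1 and ETS2 are phosphorylated by mitogen-activated protein kinases and bind next to AP-1, the factor to which the JNK substrate c-Jun belongs. ELK1 and ELK3 are ternary complex factors that act with serum response factor, and ETV6 is a repressor. ELF1 and ELF2 belong to the same subfamily, and GABPA binds DNA together with a GABPB subunit. ELK1 is itself a kinase target, and JNK is one of the kinases known to phosphorylate it. These are effects on protein activity, whereas the values below are levels of mRNA.

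RefSeq promoter windows of 300 bases, from 250 bases before to 50 bases after the transcript start (build GRCm38.p6), were at hand for 8 of the 10 genes, in 12 windows. The GGAA core on either strand was present in 12 of 12 windows and in 96.0% of all 32851 windows, so its presence does not set the family apart. The longer ETS motif CCGGAAG was found, on either strand, in 1 window, that of *Gabpa*, and in 8.86% of all windows. The AP-1 motif TGANTCA was found in 1 window each of *Elf1* and *Elf2* and in 7.81% of all windows, and the related motif TGACGTCA in none of the 12 windows and in 1.79% of all windows. The letters of CCGGAAG include GGAA, so the first 2 searches overlap. The sites of *Ets2* and *Elk3* are shown because these 2 genes had the lowest adjusted p-values below, and that of *Gabpa* because it holds the longer motif. Each stretch of 30 bases is written 5′ to 3′ on the strand of the gene, with the motif in capitals (TTCC and CTTCCGG are the motifs on the opposite strand). They lie at chr16:95702389-95702418 (plus strand), chr10:93311267-93311296 and chr10:93311168-93311197 (minus strand) and chr16:84835020-84835049 (plus strand), in the order given.
Ets2: tcccctcccccggTTCCctccggccctccc
Elk3, distal: gatgccaaacttaGGAAcccgagggctcag
Elk3, proximal: gggtggccgagcaGGAAgcggggcgggcac
Gabpa: gagggtaagtgCTTCCGGgtccctcagcta

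The deleted genes were read first. *Mapk9* was 44.1, 50.9 and 47.9 FPKM in ECtrl, 45.5, 42.7 and 47.9 FPKM in EfCtrl and 27.6, 35.1 and 20.7 FPKM in E3KO. It fell in E3KO against the mean of the controls (log2 difference -0.75, SE 0.15, adjusted p = 0.0359, limma), although without any one of 8 of the 9 libraries (all but E3KO replicate 2) its adjusted p was above 0.05, at most 0.0983. *Mapk8* ranged from 14.0 to 17.9 FPKM in the controls and was 20.7, 8.77 and 4.65 FPKM in the libraries labelled E3KO replicates 1, 2 and 3. The log2 difference of *Mapk8* from both controls was -0.67 with all 9 libraries (adjusted p = 0.285, limma) and -1.19 without the library labelled E3KO replicate 1 (adjusted p = 0.0298, limma). Without E3KO replicate 3 it was -0.21 (adjusted p = 0.649, limma). These *Mapk8* fits were not planned and were read after its values had been seen, so they are no test of its reduction. The library labelled E3KO replicate 1 thus showed no reduction of *Mapk8* mRNA, while its *Mapk9* was below every control. The FPKM of a whole gene does not show whether its floxed part was deleted. The ETS differences are also given without that library. Its deposited FPKM also summed to 9841812 with 96.4% in the 10 highest symbols. In the other 8 libraries the sums were 656089 to 908401 and the shares 40.9% to 56.8%. Without symbols above 5000 FPKM the sums were 388537 to 433172 in all 9 libraries. *Mapk10* was at or below 0.270 FPKM in every library.

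The ETS genes spanned about an order of magnitude in the control cells. *Erg* was highest, at 139 ± 14.0 FPKM (SD, n = 6 control libraries), followed by *Elk3* at 129 ± 9.67 FPKM. A middle set held *Ets1* at 71.4 ± 4.19, *Fli1* at 67.0 ± 8.27 and *Ets2* at 66.9 ± 4.59 FPKM. Below these were *Elf2* at 31.9 ± 1.97, *Elf1* at 29.0 ± 1.98 and *Gabpa* at 28.7 ± 4.48 FPKM, and the lowest were *Etv6* at 14.5 ± 1.36 FPKM and the row of *Elk1* at 11.9 ± 1.55 FPKM. The median gene tested was at 12.9 FPKM. *Erg* was above 95.3% of the genes tested and *Elk3* above 94.8%, whereas *Etv6* was above 53.5% and the *Elk1* row above 47.2%.

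**Figure D1:**
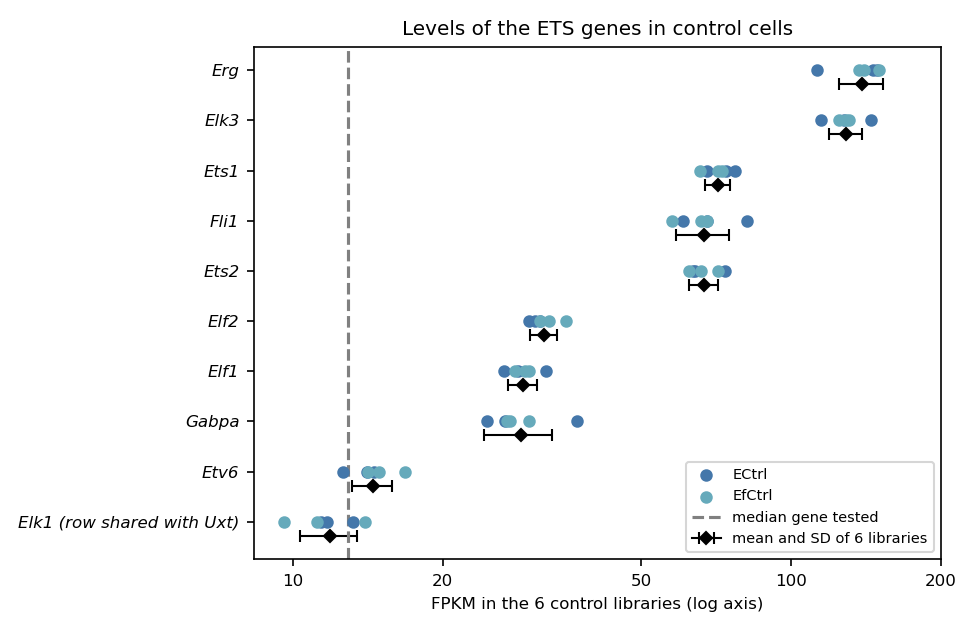
Level of each ETS gene in the 6 control libraries, as FPKM on a log axis, with points for single ECtrl and EfCtrl libraries, diamonds with bars for the mean and SD of the 6, and a dashed line at the median gene tested (12.9 FPKM). The genes form 4 steps, from *Erg* and *Elk3* at the top to *Etv6* and the shared *Elk1* row at the bottom.

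The steps between these sets were larger than the spread between libraries, and the order within a set was not. *Elk3* was above *Ets1* in 6 of 6 control libraries (mean log2 ratio 0.85, SD 0.15), *Ets2* above *Elf2* in 6 of 6 (1.07, SD 0.14) and *Gabpa* above *Etv6* in 6 of 6 (0.98, SD 0.24), and in each of these pairs the 2 ranges did not overlap. *Erg* was above *Elk3* in 5 of 6 libraries, *Ets1* above *Fli1* in 4 of 6, *Fli1* above *Ets2* in 4 of 6, *Elf2* above *Elf1* in 5 of 6 and *Elf1* above *Gabpa* in 4 of 6, with overlapping ranges. *Etv6* was above the *Elk1* row in 6 of 6, but their ranges overlapped. The row that holds *Elk1* also names *Uxt*, a neighbouring gene that overlaps the span of this shared row. In 139 rows of this kind with 2 symbols, the authors' group value was a median of 2.159 times the mean of the ECtrl libraries, against 1.076 times in 7870 rows with 1 symbol. The library values of such rows therefore behave as a mean over the symbols, and the level of *Elk1* alone cannot be told apart from that of *Uxt*.

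*Ets2* (chromosome 16, 95702074 to 95721051, mm10) was the 1 ETS gene that differed between E3KO and the controls by the test used. It was 64.2, 63.6 and 73.8 FPKM in ECtrl, 65.9, 71.3 and 62.5 FPKM in EfCtrl, and 39.2, 49.8 and 48.8 FPKM in E3KO. All 3 E3KO libraries lay below all 6 control libraries, with a gap between 49.8 and 62.5 FPKM. Against the mean of both controls it fell by 0.54 on the log2(FPKM + 1) scale (SE 0.11, 95% interval -0.79 to -0.28, adjusted p = 0.0365, limma with Benjamini-Hochberg adjustment over 10605 genes), a ratio of 0.689. In that comparison 4.8% of all genes tested were called, and in 11.5% all 3 E3KO libraries were below all 6 controls. The controls did not separate from each other, since the log2 difference of EfCtrl from ECtrl was -0.01 (SE 0.13).

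Against each control group alone the difference of *Ets2* had the same size but did not reach the threshold. It was -0.54 against ECtrl (SE 0.13, adjusted p = 0.0679, limma) and -0.53 against EfCtrl (SE 0.13, adjusted p = 0.0965, limma). With either control, all E3KO libraries were lower. The call against both controls depended on having all 9 libraries. Leaving out any one of them gave log2 differences between -0.60 and -0.43 and adjusted p-values between 0.054 and 0.0971. Without the library labelled E3KO replicate 1, which was the lowest of the 9, the log2 difference was -0.43 and the adjusted p = 0.0608. With each library centred on its median the fall was 0.47 and remained past the threshold (adjusted p = 0.0457).

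*Elk3* (chromosome 10, 93247413 to 93311135), which encodes the ternary complex factor also named NET, had the next lowest adjusted p-value among the ETS genes. It was 145, 128 and 115 FPKM in ECtrl, 125, 131 and 129 FPKM in EfCtrl, and 77.5, 99.5 and 115 FPKM in E3KO. The E3KO libraries lay below all EfCtrl libraries, while their highest value was level with the lowest ECtrl value. The log2 difference was -0.41 (SE 0.14, 95% interval -0.73 to -0.10, adjusted p = 0.125, limma) against both controls, and -0.41 against each of them alone (adjusted p = 0.202 against ECtrl and 0.233 against EfCtrl). Without the library labelled E3KO replicate 1 it was -0.26 (adjusted p = 0.225). The span of the *Elk3* row overlaps the kinase gene *Cdk17*, and the sources used here do not say if reads were assigned by strand.

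The *Elk1* row (chromosome X, 20933394 to 20986737), which belongs to the other ternary complex factor, ranged from 9.61 to 14.0 FPKM in the controls and from 10.3 to 12.7 FPKM in E3KO. Its E3KO libraries lay within the range of the controls. The log2 difference from both controls was -0.00 (SE 0.13, 95% interval -0.30 to 0.30), and -0.05 without the library labelled E3KO replicate 1.

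*Erg* (chromosome 16, 95359168 to 95586593) and *Fli1* (chromosome 9, 32422207 to 32541389), the activators of endothelial identity, did not pass the test. *Erg* was 113, 146 and 149 FPKM in ECtrl, 140, 150 and 137 FPKM in EfCtrl, and 107, 149 and 138 FPKM in E3KO. Its 2 lowest values were those of replicate 1 of ECtrl and of E3KO, and the other 7 libraries ranged from 137 to 150 FPKM. The log2 difference from both controls was -0.09 (SE 0.14, 95% interval -0.41 to 0.22, adjusted p = 0.700, limma), and 0.045 without the library labelled E3KO replicate 1. *Fli1* was 81.6, 67.9 and 60.7 FPKM in ECtrl, 68.0, 57.7 and 65.9 FPKM in EfCtrl, and 52.1, 58.7 and 61.0 FPKM in E3KO. The highest E3KO value was above the lowest value of either control group, so the groups overlapped. The log2 difference was -0.22 against both controls (SE 0.12, 95% interval -0.49 to 0.06, adjusted p = 0.307, limma), -0.28 against ECtrl and -0.15 against EfCtrl. Without the library labelled E3KO replicate 1 these were -0.15, -0.21 and -0.088. Without ECtrl replicate 1 the difference from ECtrl was -0.17.

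*Ets1* (chromosome 9, 32696041 to 32757820), the close relative of *Ets2*, ranged from 65.6 to 77.2 FPKM in the controls and from 62.2 to 81.0 FPKM in E3KO. The E3KO libraries thus held both the lowest and the highest of the 9 values. Its log2 difference from both controls was 0.02 (SE 0.11, 95% interval -0.22 to 0.27), and 0.13 without the library labelled E3KO replicate 1. That interval does not reach the -0.54 of *Ets2*, although the difference between the 2 genes was not itself tested.

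The remaining 4 genes overlapped between E3KO and the pooled controls. *Etv6* (chromosome 6, 134035699 to 134270158) ranged from 12.6 to 16.8 FPKM in the controls and from 14.2 to 18.4 FPKM in E3KO, with a log2 difference of 0.11 (95% interval -0.15 to 0.37), and 0.17 without the library labelled E3KO replicate 1. *Elf1* (chromosome 14, 79459936 to 79582476) ranged from 26.5 to 32.3 FPKM in the controls. Its E3KO libraries were at 19.9, 29.7 and 27.2 FPKM, of which replicate 1 alone was outside the control range, and the log2 difference was -0.19 (95% interval -0.50 to 0.12). Without that library it was -0.026. *Gabpa* (chromosome 16, 84827865 to 84863779) ranged from 24.6 to 37.2 FPKM in the controls and from 26.9 to 29.6 FPKM in E3KO, with a log2 difference of -0.02 (95% interval -0.32 to 0.29), and -0.054 without the library labelled E3KO replicate 1. The span of the *Elf1* row overlaps the annotated gene *Wbp4*, and that of the *Gabpa* row overlaps *Atp5j*. Positions given for the ETS genes are the spans of their rows, which can be wider than the gene.

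*Elf2* (chromosome 3, 51255664 to 51340658) was the gene whose E3KO libraries lay above one of the control groups. It was 31.4, 30.7 and 29.8 FPKM in ECtrl, 35.4, 32.7 and 31.3 FPKM in EfCtrl, and 33.0, 34.1 and 31.4 FPKM in E3KO. Every E3KO library was above every ECtrl library, the nearest pair both rounding to 31.4 FPKM, and 6.99% of all genes tested stood in the same relation. The log2 difference from ECtrl was 0.10 (SE 0.10, adjusted p = 0.597, limma) and that from EfCtrl was -0.01, with overlapping groups. Without the library labelled E3KO replicate 1 they were 0.092 and -0.018.

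**Figure D2:**
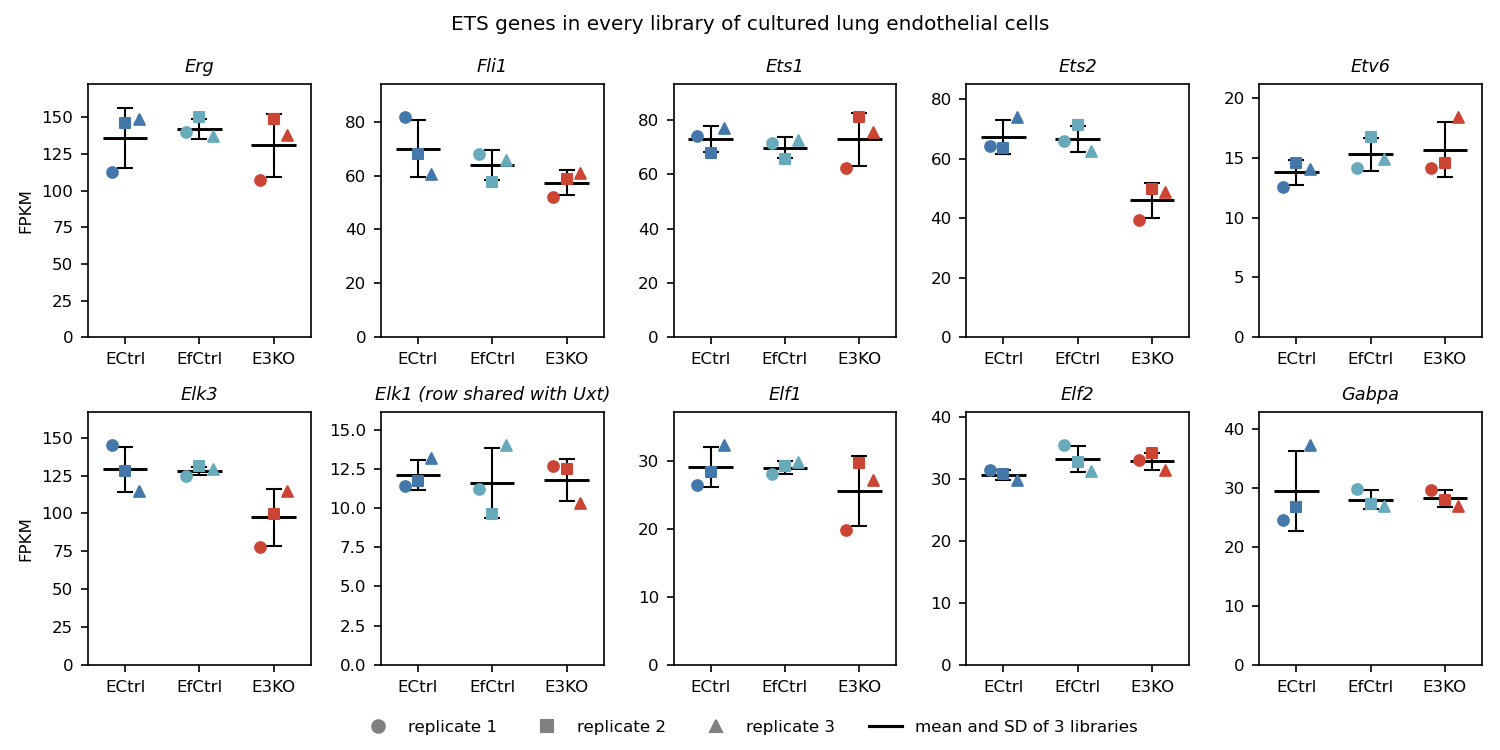
FPKM of each ETS gene (y axis from 0) in every library of ECtrl, EfCtrl and E3KO, with a symbol for each replicate number and black bars for the mean and SD of 3 libraries. *Ets2* is the panel in which all 3 E3KO libraries (39.2 to 49.8 FPKM) lie below all 6 controls (62.5 to 73.8 FPKM), and in *Elk3* the E3KO values spread from 77.5 to 115 FPKM.

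Counted over the family, 1 of 10 genes was called against the mean of the controls, with 4.8% of all genes called. Against ECtrl, 0 of 10 were called (2.25% of all genes) and against EfCtrl, 0 of 10 (0.952%), by limma with adjustment over all genes. At an unadjusted p under 0.05 each of the 3 comparisons held 2 of the 10 genes, *Ets2* and *Elk3*, with 20.1%, 17.7% and 23.8% of all genes past that value against ECtrl, EfCtrl and both. All E3KO libraries were lower for 1 of 10 genes against ECtrl (15.9% of all genes) and for 2 of 10 against EfCtrl (19.8% of all genes). These shares of the family were near those of all genes. The median log2 difference of the 10 genes was -0.05 against ECtrl, -0.07 against EfCtrl and -0.06 against both, and the median of all genes tested was -0.08 in each comparison. Between EfCtrl and ECtrl, 0 of 10 ETS genes and 0% of all genes were called, with log2 differences from -0.12 to 0.14 in the family. At an unadjusted p under 0.05 that comparison held 0 ETS genes and 195 of all genes tested. The 95% intervals of the 10 genes reached at most 0.32 to either side of the estimate against both controls and 0.37 against a single control group.

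**Figure D3:**
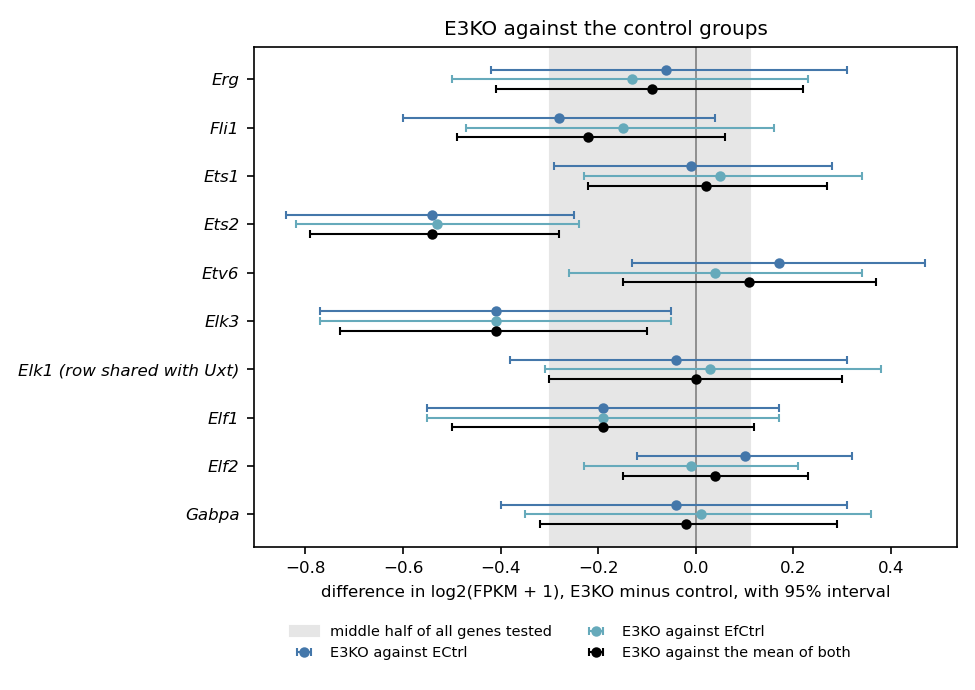
Difference in log2(FPKM + 1) between E3KO and ECtrl, EfCtrl or the mean of both for each ETS gene, as points with 95% intervals, with the grey band spanning the lower to the upper quartile of all genes tested (-0.30 to 0.11 against both). The intervals of *Ets2* and *Elk3* lie below 0 and those of the other 8 genes include it.

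The library labelled E3KO replicate 1 was the lowest of the 9 for 6 of the 10 ETS genes. Its median log2 ratio to the control mean was -0.28 over the family and -0.18 over all genes tested. The ratio was of FPKM for the family and of FPKM + 1 for all genes, so these medians are not on 1 scale. In E3KO replicate 2 these medians were 0.02 and -0.05, and in replicate 3 they were -0.09 and -0.09. In that first library the epithelial markers also summed to 51.2 FPKM, of which the club cell gene *Scgb1a1* made up 46.2 FPKM, against 2.45 to 6.03 FPKM in the other 8 libraries. The part of these values in the differences above was not tested.

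Of the 10 genes, 4 form neighbouring pairs. *Fli1* and *Ets1* lie 155 kb apart on chromosome 9, on opposite strands, and *Erg* and *Ets2* lie 115 kb apart on chromosome 16, also on opposite strands, with 0 protein-coding genes between them in either case. The 2 genes of the second pair did not keep step in every library. E3KO replicate 2 held 149 FPKM of *Erg*, near the top of the 9 libraries, and 49.8 FPKM of *Ets2*, below every control. The log2 differences from both controls were -0.09 for *Erg* and -0.54 for *Ets2*, and their difference was not tested.

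A further list of 17 ETS genes was read for the rest of the family, and 15 were found by symbol. Of these, 6 passed the filter on low values and 0 were called in any comparison with E3KO, where 2.25%, 0.952% and 4.8% of all genes were called against ECtrl, EfCtrl and both. The highest were *Elk4*, the third ternary complex factor, with group means of 28.3, 27.6 and 27.3 FPKM in ECtrl, EfCtrl and E3KO, and *Elf4* with 14.7, 16.0 and 15.9 FPKM. *Etv4* was the 1 gene with an unadjusted p under 0.05 against both controls (23.8% of all genes tested) and was named for that reason. It was 12.2, 8.68 and 10.3 FPKM in ECtrl, 13.4, 8.69 and 7.31 FPKM in EfCtrl, and 3.70, 6.66 and 8.97 FPKM in E3KO, with overlapping groups and a log2 difference of -0.62 (SE 0.26, adjusted p = 0.201, limma). The median log2 difference of the 6 genes from both controls was -0.09. The other 9 genes were below 2 FPKM in every library, and *Etv2*, a regulator of early endothelial specification, and *Spdef* were listed at 0 in all of them. The 2 values above 1.8 FPKM among those 9 genes belonged to *Elf5* (1.93 FPKM) and *Fev* (1.83 FPKM), both in the library labelled E3KO replicate 1. They were named after their values had been seen.

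Genes that ETS factors are known to control in endothelium showed differences in both directions. Of 16 genes, 15 were tested and *Vwf* was below the filter. Against both controls 2 rose, *Clec14a* and *Flt1*, and 1 fell, *Cldn5*, with 4.8% of all genes called, while the median log2 difference of the 15 was 0.03 and that of all genes -0.08. Against each control alone, *Clec14a* was the 1 of the 15 called, with 2.25% of all genes called against ECtrl and 0.952% against EfCtrl. At an unadjusted p under 0.05 the list held 5 genes against both controls (23.8% of all genes). Beside the called ones these were *Dll4*, the gene of a Notch ligand (log2 difference -0.71, adjusted p = 0.0783, limma), and *Mmrn2* (0.58, adjusted p = 0.106, limma), both named after their values had been seen. The markers of the cells themselves, *Cdh5* and *Pecam1*, had the 2 highest values as listed by row, and neither was called. *Cdh5*, whose promoter drives Cre, had group means of 772, 841 and 837 FPKM in ECtrl, EfCtrl and E3KO, and *Pecam1* of 705, 703 and 722 FPKM. *Icam2*, which was used for selection, had means of 179, 195 and 158 FPKM (log2 difference -0.24, adjusted p = 0.250, limma). The values of 2 genes come from rows shared with neighbours, which are *Egfl7* with *Fam69b* and *Gm20532*, and *Eng* with *Ak1*.

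*Clec14a*, which encodes an endothelial C-type lectin receptor, was 16.3, 18.1 and 15.6 FPKM in ECtrl, 18.3, 14.6 and 15.4 FPKM in EfCtrl, and 27.5, 25.5 and 27.9 FPKM in E3KO. All E3KO libraries were above all controls. Against ECtrl alone, 6.99% of all genes tested lay higher in this way, and the share against both controls is not given here. *Clec14a* rose by a log2 difference of 0.69 (SE 0.10, adjusted p = 0.014, limma). Without EfCtrl replicate 3 or without E3KO replicate 3 the call was lost, with an adjusted p of at most 0.0765, and the log2 difference stayed between 0.66 and 0.73 without any one library. *Flt1*, the gene of VEGF receptor 1, was 2.44, 5.04 and 6.63 FPKM in ECtrl, 4.03, 5.53 and 4.37 FPKM in EfCtrl, and 9.32, 9.61 and 11.8 FPKM in E3KO. All E3KO libraries were again higher, and the log2 difference was 1.02 (SE 0.24, adjusted p = 0.0492, limma). Its call was lost without any one of 7 libraries (all but ECtrl replicates 1 and 3), with an adjusted p of at most 0.145, and also with another pseudocount or filter.

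*Cldn5*, the gene of the endothelial tight junction protein claudin-5, was 276, 167 and 201 FPKM in ECtrl, 263, 198 and 197 FPKM in EfCtrl, and 97.5, 129 and 114 FPKM in E3KO. All E3KO libraries were lower than all controls, as in 11.5% of all genes tested, with the nearest pair at 129 and 167 FPKM. It fell by 0.92 on the log2 scale (SE 0.18, adjusted p = 0.0322, limma). The call was lost without any one of 7 libraries (all but ECtrl replicates 1 and 2), with an adjusted p of at most 0.104.

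**Figure D4:**
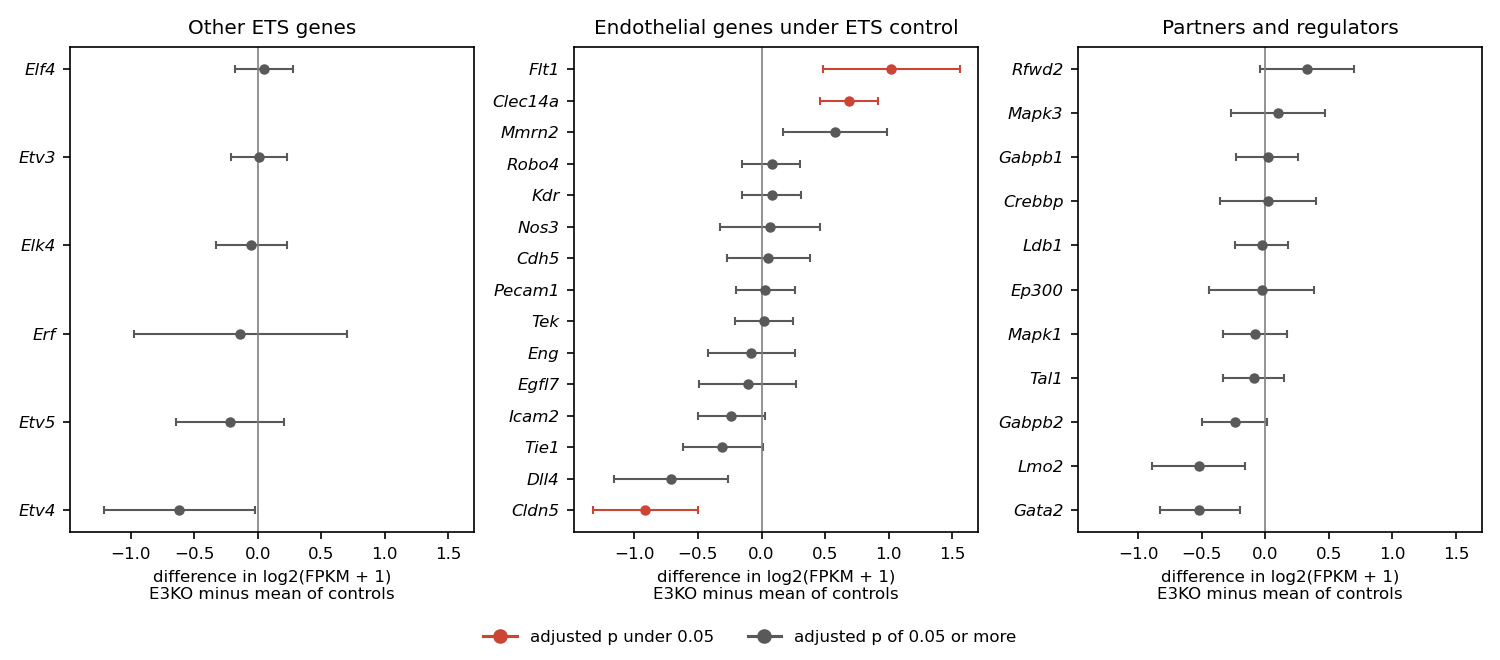
Difference in log2(FPKM + 1) between E3KO and the mean of the controls for other ETS genes, endothelial genes under ETS control, and partners and regulators, as points with 95% intervals, red where the adjusted p was under 0.05 (*Egfl7* and *Eng* are values of shared rows). *Flt1* (1.02), *Clec14a* (0.69) and *Cldn5* (-0.92) are the 3 called genes, all in the middle panel.

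Of 12 partners and regulators of ETS proteins, 11 were tested and 0 were called by limma in any comparison with E3KO. Of all genes tested, 2.25%, 0.952% and 4.8% were called against ECtrl, EfCtrl and both. In the list, 2 genes were past an unadjusted p of 0.05 against both controls, a smaller share than the 23.8% of all genes. These were *Lmo2* and *Gata2*, which encode parts of a complex that acts beside ETS factors on endothelial enhancers. *Lmo2* was 345, 229 and 211 FPKM in ECtrl, 243, 232 and 269 FPKM in EfCtrl, and 168, 188 and 168 FPKM in E3KO, and *Gata2* was 9.26, 7.07 and 5.93 FPKM, 7.83, 8.30 and 7.50 FPKM, and 5.57, 4.32 and 5.17 FPKM in the same order. In both genes all E3KO libraries were below all controls, as in 11.5% of all genes tested. The log2 differences were -0.52 for *Lmo2* (SE 0.16, adjusted p = 0.10, limma) and -0.52 for *Gata2* (SE 0.14, adjusted p = 0.0722, limma). *Gata2* was named after its values had been seen. *Mapk3*, an ERK gene and the second highest of the list, had group means of 126, 127 and 136 FPKM in ECtrl, EfCtrl and E3KO.

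Target genes of 2 other branches were also read. Of 9 serum response genes, on which serum response factor and ELK proteins act together, *Srf* and *Mcl1* passed the filter and 0 were called (0 at an unadjusted p under 0.05). *Srf* had group means of 2.97, 2.86 and 2.6 FPKM and *Mcl1* of 127, 115 and 112 FPKM in ECtrl, EfCtrl and E3KO. The other 7, which are immediate early genes, stayed below 2 FPKM in all libraries. Of 6 mitochondrial genes known as targets of the GABP complex, 5 were found, 4 were tested and 0 were called (0 at an unadjusted p under 0.05), with a median log2 difference of 0.07 from both controls. The highest were *Atp5b*, with group means of 609, 567 and 596 FPKM, and *Cox5b*, with 32.5, 36.1 and 31.2 FPKM. Of all genes tested, 2.25%, 0.952% and 4.8% were called against ECtrl, EfCtrl and both. At an unadjusted p under 0.05 the shares were 20.1%, 17.7% and 23.8%. With so few genes tested in either list, counts of 0 say little about these branches.

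The cells carried the endothelial markers of their label, except that *Vwf* was at or below 2.15 FPKM in every library. The 8 endothelial markers summed to between 2560 and 3270 FPKM in ECtrl, 2970 and 3120 FPKM in EfCtrl, and 3340 and 3670 FPKM in E3KO, so that every E3KO library was above every control. This rested on *Emcn*, since the other 7 markers summed to 1740 to 2240, 2020 to 2090 and 1780 to 2220 FPKM. *Emcn* was the 1 marker called higher (log2 difference 0.63, adjusted p = 0.026, limma). Its call was lost without any one of 5 libraries (EfCtrl replicates 1 and 3 and each E3KO library), with an adjusted p of at most 0.0948. *Tie1* and *Icam2* were lower in all E3KO than in all EfCtrl libraries, as were 19.8% of all genes tested. Both overlapped with ECtrl, and neither was called. Of the 9 leukocyte markers 8 were found, with the T cell marker *Cd3e* at 0 in every library. Their sums were 41.7 to 129 FPKM in ECtrl, 129 to 224 FPKM in EfCtrl and 154 to 279 FPKM in E3KO. *Lyz2* made up most of each sum, with group means of 73.2, 141 and 189 FPKM in that order. It was not called against both controls (adjusted p = 0.202, limma). At 2.26 FPKM or less in every library, *Ptprc*, *Csf1r* and *Emr1* had E3KO means above ECtrl and below EfCtrl. The means of *Cd68* and *Itgam* were highest in E3KO. The 8 smooth muscle and fibroblast markers summed to 11.9 to 44.9, 25.6 to 77.1 and 10.1 to 22.7 FPKM in the same order. The part of these sums in the ETS values was not tested, and in such bulk samples fewer cells of a type cannot be told apart from less RNA per cell.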

How the data were processed

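Per the methods, the authors mapped paired reads to mm10 with TopHat2, took FPKM from Cufflinks and compared groups with Cuffdiff. The labels name TopHat, Bowtie, Cufflinks 1.0.3 and Cuffdiff, and a strand setting is not given in the sources used here. The deposited tables hold FPKM per library and per group. Their columns of the authors' own fold changes, test statistics, p-values and q-values were not used. FPKM carries no fragment counts, so sequencing depth cannot be read from it and counting intervals are left out.

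Samples were grouped by the genotype in the labels. Of the loci, the 33353 whose symbol occurs once were kept. The model (limma 3.58.1 in R 4.3.3) used log2(FPKM + 1) of all 9 libraries and the 10605 genes with a group mean of at least 2 FPKM. It held the 3 groups, default moderation and Benjamini-Hochberg adjustment over all genes, and an adjusted p under 0.05 was a call. Fold changes on this scale understate those of low genes. The fit was tested on simulated data. Tables were joined in Python 3.11.15 with pandas 2.3.3, and loci were annotated with GENCODE on the files' build. The ETS genes and all lists were chosen with earlier results of these data known. Every ETS gene is named, and from each further list the called genes, the 2 highest, *Cdh5*, *Icam2* and the JNK genes. A few other genes of those lists are named for their values. Alternatives covered the pseudocount, filter, scaling, moderation, replicate block, groups in the fit and omission of each library.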

Additional observations from a re-analysis of the deposited data

Results flagged for a closer look

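*Erg* in ECtrl replicate 1 (113 FPKM) stood apart from the other 5 control libraries, which lay between 137 and 150 FPKM. The gap to its nearest neighbour was 0.657 of the whole range of the 6 controls, above Dixon's critical value of 0.625. The same check was run on each of the 10 ETS genes, and chance flags about 1 in 20 such groups. Without ECtrl replicate 1 the log2 difference of *Erg* between E3KO and the mean of the controls was -0.16, against -0.09 with it.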

How the results depend on the processing

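The fall of *Ets2* against the mean of the controls kept its direction under all 17 alternatives and its side of the threshold under 7 of them. It missed the threshold under the replicate block and without each single library. The difference of *Elk3* from both controls stayed negative and above the threshold under all 17 (adjusted p from 0.096 to 0.225). The number of genes called depended on the libraries: without one library it ranged from 0 to 215 against ECtrl (239 with all), from 1 to 218 against EfCtrl (101), from 9 to 408 against both (509) and from 0 to 4 between the controls (0). The extremes came without E3KO replicate 3 (0, 1 and 9), E3KO replicate 1 (215), ECtrl replicate 1 (218), ECtrl replicate 3 (408) and EfCtrl replicate 1 (4). With no filter on low values, 95 genes were called against ECtrl and 17 against EfCtrl, where 20429 genes were tested, and against both controls the calls of *Flt1* (adjusted p = 0.0925), *Cldn5* (0.0593) and *Mapk9* (0.0597) were lost. *Flt1* was also lost with a pseudocount of 0.1 (0.0688) and a filter at 1 FPKM (0.0531). With only the 2 groups in the fit, 0 were called against ECtrl and 70 against EfCtrl. Fewer libraries set the spread in these fits, and the cause of the lost calls was not tested. For the mean of both controls that alternative is the fit itself.

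Same-numbered libraries came from separate isolations, and their deviations correlated between -0.04 and 0.123. Libraries of unlike number were not compared in this way, so whether the numbers pair the samples was not tested. The replicate block gave 1 call against ECtrl, 1 against EfCtrl and 202 against both, and the adjusted p of *Ets2* was then 0.0756. The calls of *Flt1* (0.0637), *Cldn5* (0.0715), *Emcn* (0.0579) and *Mapk9* (0.0756) were lost with it too.

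Small differences changed sign. Centred on the median or scaled by the upper quartile, those from both controls were 0.069 and 0.034 for the *Elk1* row and 0.054 and 0.02 for *Gabpa*, and that of *Elf2* from EfCtrl was 0.057 and 0.01. Without one library they ran from -0.191 to 0.045 for *Erg*, -0.056 to 0.132 for *Ets1*, -0.006 to 0.171 for *Etv6*, -0.06 to 0.088 for the *Elk1* row, -0.075 to 0.07 for *Gabpa*, and -0.052 to 0.034 for *Elf2* against EfCtrl. The cause of these changes was not tested. Depth is unknown, so counting error limits the low genes by an amount that cannot be given.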

Other observations

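The authors' group values are on a scale of their own. Over rows with 1 symbol and at least 5 FPKM, the authors' group value was a median of 1.076 times the mean of the 3 library values in ECtrl, 1.067 times in EfCtrl and 1.171 times in E3KO. For *Ets2* the authors' group values were 71.8, 71.0 and 53.7 FPKM in ECtrl, EfCtrl and E3KO, against library means of 67.2, 66.6 and 46.0 FPKM.

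*Etv6* had group values of 18.5, 22.0 and 24.0 FPKM, as the authors give them, against library means of 13.8, 15.3 and 15.7 FPKM. These are ratios of 1.34, 1.44 and 1.52. They exceed the ratios of 99.3%, 99.4% and 99.3% of the rows with 1 symbol in these groups. *Erg* stood on the other side, with ratios of 0.933, 0.907 and 0.987. By the authors' group values *Erg* (127 and 129 FPKM) was below *Elk3* (136 and 134 FPKM) in ECtrl and EfCtrl. In E3KO it was above *Elk3* (129 against 112 FPKM). *Etv6* and *Erg* were named after their values had been seen, and the source of these ratios was not tested.

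*Erf*, an ETS repressor gene, varied more within E3KO than between groups. It was 18.7, 8.81 and 4.28 FPKM in the libraries labelled E3KO replicates 1, 2 and 3, and between 8.14 and 13.8 FPKM in the 6 controls. It was named after its values had been seen.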
